A study of Homo sapiens with 12 samples.

Results

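The matrix metalloproteinases (MMPs), their tissue inhibitors (TIMPs), the cathepsins and the serpins were examined in SKBR3 and MDA-MB-453, established lines from breast carcinomas that the study places in the HER2 subtype. Members were selected by gene symbol. The set comprised 76 protein-coding genes of 62696 genes in the count tables, namely 23 MMPs, 4 TIMPs, 15 cathepsins and 34 serpins. A further 9 entries with matching symbols were pseudogenes or non-coding transcripts and were left out.

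Poly-A RNA-seq counts were available for 12 libraries in 4 groups of 3 biological replicates: SKBR3 untreated, SKBR3 with TWEAK, MDA-MB-453 untreated and MDA-MB-453 with TWEAK. TWEAK (TNFSF12) is a cytokine of the TNF superfamily and Fn14 (TNFRSF12A) is its receptor. Cells were seeded in medium with 10% serum and starved for 8 h, and the TWEAK groups then received 10 ng/ml of the ligand for 48 h, with fresh ligand at 24 h. The labels give the same seeding and starvation text for the untreated groups and name no vehicle. Each model is 1 established cell line, so a difference between the lines cannot be told apart from a difference between their library preparations.

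MMPs are zinc-dependent enzymes that cleave collagens and other matrix proteins, mostly outside the cell, and TIMPs block them by binding the active site. Cathepsins are proteases that act mainly in endosomes and lysosomes and use a cysteine, aspartate or serine mechanism. Serpins trap their target protease in a covalent complex, although some members, such as the collagen chaperone SERPINH1 (HSP47), inhibit no protease. In carcinomas the secreted members of these families take part in the remodelling of matrix around the tumour.

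Promoter sequences from RefSeq (GRCh38.p14) were matched for 52 of the 76 genes. Those of CTSE, TIMP1 and TIMP3 are shown because these 3 genes rose with TWEAK in SKBR3 and NF-κB is a known effector of Fn14. CTSV was also called, with a call that was lost in 7 of 14 alternative analyses; its window, which is not shown, held the κB pattern described here as well. The windows are the 250 bases before the start of CTSE (chr1:206023896-206024145, minus strand), TIMP1 (chrX:47582186-47582435, plus strand) and TIMP3 (chr22:32801455-32801704, plus strand), each read 5′ to 3′ in the direction of the gene. The starts are those of RefSeq. For CTSE and TIMP1 they differ from the start of the gene in GENCODE, so the ends of these windows lie inside the GENCODE gene. Capitals mark matches to a loose κB pattern, GGG and CC with any 5 bases between them, on either strand.
CTSE: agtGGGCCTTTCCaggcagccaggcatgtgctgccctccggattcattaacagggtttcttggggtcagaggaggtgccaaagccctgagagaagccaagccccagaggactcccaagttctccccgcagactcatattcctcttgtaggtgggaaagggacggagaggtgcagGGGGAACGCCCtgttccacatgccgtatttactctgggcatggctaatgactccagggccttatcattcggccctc
TIMP1: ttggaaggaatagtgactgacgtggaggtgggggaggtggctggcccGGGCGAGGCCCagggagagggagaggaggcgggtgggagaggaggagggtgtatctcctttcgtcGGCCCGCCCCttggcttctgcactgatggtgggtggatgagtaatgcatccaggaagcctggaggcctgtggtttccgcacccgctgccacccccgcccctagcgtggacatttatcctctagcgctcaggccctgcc
TIMP3: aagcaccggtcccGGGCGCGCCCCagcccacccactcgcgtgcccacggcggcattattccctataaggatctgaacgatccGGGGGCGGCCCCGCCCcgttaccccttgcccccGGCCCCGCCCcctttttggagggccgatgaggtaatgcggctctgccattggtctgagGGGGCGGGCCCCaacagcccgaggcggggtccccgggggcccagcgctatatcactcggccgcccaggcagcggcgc

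In the CTSE window the κB pattern began 247 bases before the start, and again 76 and 75 bases before it in overlapping copies. TIMP1 held overlapping copies from 203 and 202 bases before its start and another from 138 bases. The pattern is common: 54.4% of all 35116 RefSeq windows of this length held it, as did 37 of the 66 member windows (56.1%). Those 37 windows belonged to 30 of the 52 matched genes. The AP-1 pattern TGANTCA occurred in none of the 3 windows shown, in 6.57% of all windows and in 12 of the 66 member windows (18.2%). Those 12 belonged to 11 of the 52 genes, among them MMP10, SERPINB5 and SERPINB8. The others (MMP7, MMP20, SERPINB2, SERPINB7, SERPINB12, SERPINB13, SERPINE3 and SERPINI2) never exceeded 3 counts in a library. SERPINB8 was tested in both lines and not called with TWEAK. The interferon-response core, GAAA and GAAA with any 2 bases between them, occurred in 3.02% of all windows. Among the 66 member windows it occurred in 1 (1.52%), that of SERPINB12. No test of these shares was run. A match of letters does not show that a factor binds there. MMP2, MMP9, MMP13 and TIMP2 had no entry among the sequences used.

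Library totals lay between 24773003 and 35208304 counts. The limit of detection of a group was set at 3 counts in each of its libraries, which corresponds to 0.0853 to 0.121 CPM (a count scaled to the total of its library) according to the library. The second TWEAK replicate was the farthest library from the other 2 of its group in both lines, by a chi-square of 21.1 and 23.8 per degree of freedom in SKBR3 and of 10.2 and 5.31 in MDA-MB-453, against 1.78 to 5.74 between the remaining replicates. Results that rest on it are given with and without it. The receptor gene TNFRSF12A was present in every library at 53.6 to 91.4 CPM, whereas TNFSF12 was at the limit of detection in both lines. All 6 luminal epithelial markers were above that limit in each line, although CDH1 had only 1 to 7 counts per library in SKBR3, and CD3E, CD68, PECAM1, DCN and LUM were at or under it. The lists of other cell types were not wholly at the limit. In untreated SKBR3, 3 of 5 leukocyte markers (CD14, LYZ and PTPRC), 2 of 5 fibroblast markers (COL1A1 and PDGFRB) and 2 of 3 endothelial markers (CDH5 and VWF) exceeded it, and in untreated MDA-MB-453 these counts were 2, 2 and 1. COL1A1 was the most abundant of them, with a mean of 18.4 CPM in untreated SKBR3 and 126 CPM in untreated MDA-MB-453.

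Detection of these families was counted over all 6 libraries of a line, treated ones included. In SKBR3, 31 of the 76 genes had enough counts to be tested, 10 more exceeded the limit of detection, 18 had at most 3 counts in every library and 17 had none. MDA-MB-453 had 24 tested genes, 8 more above the limit, 22 at or under it and 22 with no count. In both lines 23 genes were tested, and 32 in at least 1. These counts include CTSE in both lines and MMP2, TIMP3 and CTSS in SKBR3, which were tested only through their TWEAK libraries.

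No read was counted in any of the 12 libraries for 11 genes (CTSG, MMP26, MMP27, SERPINA2, SERPINA7, SERPINA10, SERPINA12, SERPINB3, SERPINB10, SERPINB11 and SERPINB12). Another 21 genes never exceeded 3 counts (MMP3, MMP7, MMP8, MMP12, MMP19, MMP20, TIMP4, SERPINA3, SERPINA4, SERPINA5, SERPINA6, SERPINA9, SERPINA11, SERPINB2, SERPINB4, SERPINB7, SERPINB13, SERPIND1, SERPINE3, SERPINF2 and SERPINI2). These silent members lay mostly in gene clusters. Of the 9 MMP genes between bases 102520508 and 102955732 of chromosome 11, 6 were at or under the limit in both lines, and MMP13 at one edge of the cluster was the most abundant of them. Of the 10 serpin genes at 94280460 to 94624055 on chromosome 14, 9 were at or under the limit in both lines, and of the 10 at 63476958 to 64019779 on chromosome 18, 8 were. By contrast, each of the 3 SERPINB genes at 2832332 to 2972165 on chromosome 6 was above the limit in SKBR3, and 2 of them were in MDA-MB-453.

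To compare members with each other, levels were divided by the length of the reference transcript. In untreated SKBR3 the lysosomal aspartic protease CTSD was highest at 328 CPM per kb. On this length the serine carboxypeptidase CTSA stood at 155, the carboxypeptidase CTSZ at 87.2 and TIMP2 at 59.4 CPM per kb. CTSD alone made up 38.1% ± 1.0 (SD, n = 3) of the summed CPM of the 76 genes in these libraries. The membrane-type enzyme MMP15 was the highest MMP at 23.0 CPM per kb, and SERPINH1 at 25.0 and SERPINB6 at 13.3 CPM per kb led the serpins described here by this length.

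In untreated MDA-MB-453 the order was different. By the reference transcript SERPINH1 stood at 78.0 CPM per kb, SERPINB6, an inhibitor of intracellular serine proteases, at 66.8, CTSA at 66.7 and CTSD at 54.0 CPM per kb. CTSD made up 12.2% ± 0.18 (SD, n = 3) of the summed CPM of the set. MMP15 was again the highest MMP, at 32.0 CPM per kb, and TIMP1 was the highest TIMP at 21.6. The order depended on the length used. Dividing by all annotated exon bases left CTSD highest in SKBR3, at 118 CPM per kb, but put TIMP2 at 35.0 ahead of CTSA at 33.3 and CTSL ahead of CTSZ. In MDA-MB-453 it put MMP15 at 30.7 CPM per kb ahead of SERPINH1 at 25.6, CTSD ahead of CTSA, CTSB ahead of CTSC and SERPINB1 ahead of SERPINB6, so no member was highest there by both lengths. Exons of CTSA and CTSZ share 21.5% and 31.7% of their length with genes on the opposite strand and those of CTSD share 23.4% with PRADX on the opposite strand and 27.3% with annotated transcripts on its own strand, and the strand setting of the counting was not stated.

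**Figure D1:**
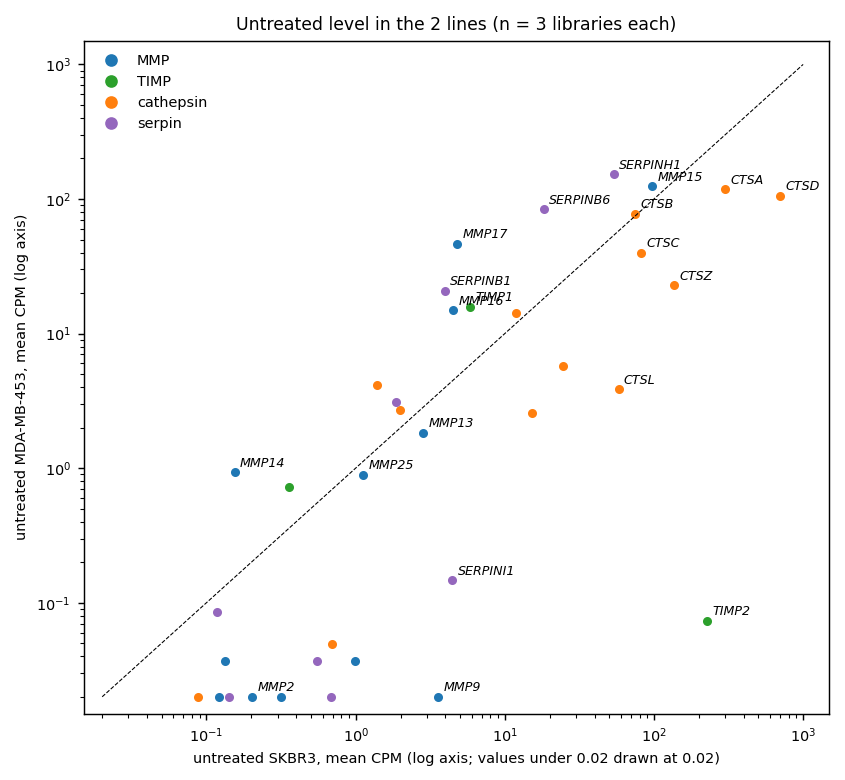
Mean CPM of 37 members in untreated SKBR3 (x axis) and untreated MDA-MB-453 (y axis), both on log axes and scaled over all 12 libraries. Each point is the mean of 3 libraries, the colour gives the family and the dashed line marks equal levels; TIMP2 and MMP9 lie far below the line, and MMP17, SERPINB1 and SERPINB6 above it.

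Between untreated lines, 84.2% of all 17201 genes tested differed (edgeR's quasi-likelihood test, Benjamini-Hochberg adjusted p of at most 0.1), 40.7% being higher in MDA-MB-453 and 43.5% lower, so a difference of a member is not unusual. Among the 32 members tested, 13 were higher in MDA-MB-453, 16 were lower and 3 (CTSB, CTSE and MMP25) did not pass. The counts are not neutral, since 8 of the lower members (CTSS, MMP2, MMP9, MMP11, SERPINA1, SERPINF1, SERPINI1 and TIMP2) were testable within SKBR3 but not within MDA-MB-453, and the higher MMP14 only within MDA-MB-453. CTSE, with at most 1 count in an untreated library, had no level to compare. The widest contrast was that of an inhibitor. TIMP2, which blocks MMPs and also takes part in the activation of pro-MMP2, had a mean of 227 CPM in untreated SKBR3 and 2 counts in each untreated MDA-MB-453 library, at least 2054-fold lower. CPM in the comparison of untreated lines were scaled over all 12 libraries. Those given elsewhere were scaled within each line, so they differ slightly.

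TIMP1 went the other way, with 5.81 ± 1.24 CPM in SKBR3 and 15.9 ± 1.01 in MDA-MB-453 (SD, n = 3), a log2 difference of 1.45 ± 0.12 (SE). The 3 clade B serpins with enough counts to test were higher in MDA-MB-453, with log2 differences of 2.40 for SERPINB1, 2.20 for SERPINB6 and 0.72 for SERPINB8. SERPINH1 was higher by 1.52. Among the enzymes, 4 of 5 tested membrane-type MMPs were higher in MDA-MB-453, from 0.35 for MMP15 to 3.28 for the glycolipid-anchored MMP17. Of all genes tested, 40.7% were higher in MDA-MB-453, and MMP14, among these 4, was testable only within that line.

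The gelatinases showed the opposite: MMP9 was at least 32.6-fold and MMP2 at least 1.82-fold lower in MDA-MB-453, where neither exceeded 3 counts in an untreated library. Of the 13 tested cathepsins, 8 were lower in MDA-MB-453, where 43.5% of all genes tested were lower. These 8 included CTSL with a log2 difference of -3.90, CTSD with -2.73, CTSZ with -2.58, CTSV with -2.56 and CTSH with -2.11. CTSO, CTSK and CTSF were higher, by 1.60, 0.44 and 0.27. CTSB, with 74.8 CPM in SKBR3 and 78.0 CPM in MDA-MB-453, gave a difference of 0.06 ± 0.06 (SE). When only genes with at least 10 counts in every library were tested, 8 of 21 members were lower in place of 16 of 32. Genes lower among all tested were 5278 of 12605 in that setting, against 7491 of 17201.

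Some MMPs, TIMPs and cathepsins were higher with TWEAK in SKBR3, namely 3 of 8 tested MMPs, 2 of 3 TIMPs and 2 of 13 cathepsins. The secreted enzymes MMP9, MMP13 and MMP2, the inhibitors TIMP1 and TIMP3, and the cathepsins CTSE and CTSV were higher in treated cells. In total 7 of 31 tested members were called higher and none lower by edgeR's quasi-likelihood test, where 10.4% of all 15661 genes were called, 6.6% in the higher direction and 3.82% in the lower. At an unadjusted threshold of 0.05, 11 members were higher and 2 lower (CTSC and MMP16), against 10.7% and 9.02% of all genes. DESeq2 called 6 members higher and none lower, against 5.08% and 2.54% of the genes it tested. The median log2 fold change was 0.14 over the 31 members and -0.0074 over all genes tested. CTSE, MMP2, TIMP3 and CTSS reached the count filter only through their TWEAK libraries, so the 31 are not a neutral selection of the 76.

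**Figure D2:**
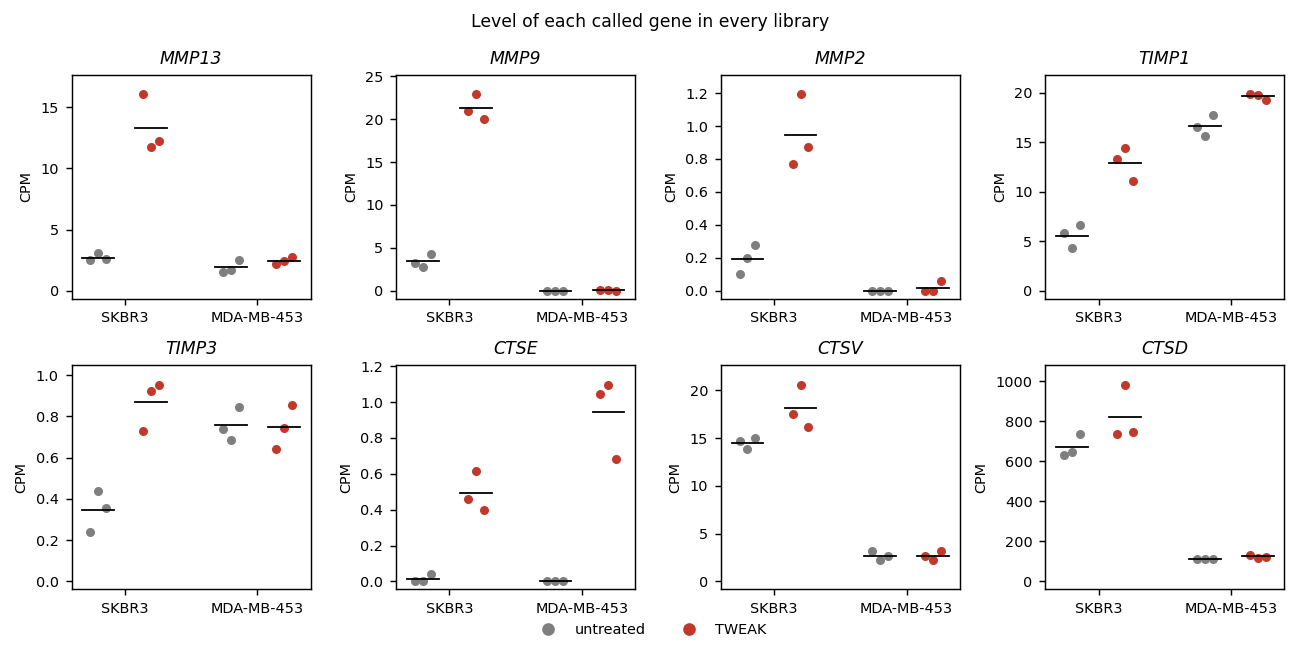
CPM in every library (y axis, each panel from 0) for the 8 genes called in either line, with untreated libraries in grey, TWEAK libraries in red and the mean of 3 as a bar. The panels of MMP9, MMP13 and MMP2 show separated groups in SKBR3 and values near 0 or overlapping groups in MDA-MB-453, whereas CTSE and TIMP1 are separated in both lines.

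MMP9 (gelatinase B), which degrades denatured collagen and basement membrane collagen, rose the most among the MMPs. It had 3.21, 2.78 and 4.34 CPM in untreated SKBR3 and 20.9, 22.9 and 20.1 CPM with TWEAK. All treated libraries were thus well above all untreated ones, with a 6.20-fold change (log2 2.63 ± 0.14 SE, adjusted p = 5.11e-07). The gene lies at bases 46008908 to 46016561 of chromosome 20, and 18.4% of its exon length overlaps SLC12A5-AS1 on the opposite strand.

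MMP13 (collagenase 3), which cleaves fibrillar collagen, was the only collagenase with enough counts to test. It had 2.48, 3.05 and 2.57 CPM without TWEAK and 16.1, 11.7 and 12.2 CPM with it, groups that did not overlap. The change was 4.94-fold (log2 2.31 ± 0.15 SE, adjusted p = 3.29e-06). Its neighbours in the chromosome 11 cluster were near the limit of detection, the highest being the stromelysin MMP10 with 7, 8 and 9 counts in untreated and 18, 9 and 15 counts in treated libraries. MMP10 was not tested with all libraries; without the second TWEAK replicate it passed the filter, only through the remaining treated libraries, and was called at a log2 fold change of 1.09 and an adjusted p of 0.0702. MMP1, the interstitial collagenase, had 2 to 5 counts in untreated and 5 to 7 counts in treated SKBR3 libraries.

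MMP2 (gelatinase A) was scarce, at 0.103, 0.198 and 0.276 CPM in untreated and 0.770, 1.19 and 0.874 CPM in treated SKBR3. These levels correspond to 3 to 7 and 20 to 31 counts. The groups did not overlap, and the change was 4.91-fold (log2 2.30 ± 0.37 SE, adjusted p = 0.00249). MMP2 reached the count filter only through its treated libraries, so this test and separation are not independent of that selection.

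None of the 4 membrane-type MMPs tested in SKBR3 (MMP15, MMP16, MMP17 and MMP25) was called, and their log2 fold changes ran from -0.48 to 0.27. MMP15, the most abundant, had 88.0, 93.5 and 98.7 CPM untreated and 88.7, 104 and 94.0 CPM with TWEAK. Its log2 fold change of 0.03 had a 95% interval from -0.11 to 0.18. MMP16 had the lowest estimate of any member, -0.48 ± 0.19 (SE), with an adjusted p of 0.197. MMP14, the main activator of pro-MMP2, had 1 to 8 counts per SKBR3 library and was not tested. The secreted MMP11, a stromelysin that is usually made by stromal cells, was not called either and stood at 0.953 CPM untreated and 0.894 CPM treated.

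Among the TIMPs, TIMP1 and TIMP3 were higher with TWEAK and TIMP2 was not called. TIMP1, a soluble inhibitor that binds pro-MMP9, had 5.79, 4.28 and 6.63 CPM in untreated and 13.3, 14.4 and 11.1 CPM in treated SKBR3. The groups did not overlap and the change was 2.32-fold (log2 1.21 ± 0.15 SE, adjusted p = 0.000391). TIMP3, the matrix-bound member that also inhibits ADAM17, had 0.241, 0.436 and 0.355 CPM untreated and 0.732, 0.924 and 0.954 CPM treated. Its 2.53-fold change (log2 1.34 ± 0.30 SE, adjusted p = 0.0177) rested on 7 to 11 and 19 to 24 counts and had an adjusted p of 0.107 without the first untreated replicate. TIMP3, too, reached the count filter only through its treated libraries, so its test is not independent of that selection.

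TIMP2 was by far the most abundant TIMP of SKBR3 and stayed within 209 to 227 CPM over the 6 libraries. Its log2 fold change was 0.05, with a 95% interval from -0.06 to 0.15.

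The serpins described here showed no call in SKBR3, with 7 of them tested. SERPINH1 had 51.4 CPM untreated and 56.2 CPM treated, with a log2 fold change of 0.13 and a 95% interval from -0.02 to 0.28. SERPINF1 (PEDF) had the largest estimate among them, 0.71 ± 0.29 (SE) at an adjusted p of 0.202, from 0.654 and 1.07 CPM. SERPINI1 (neuroserpin) had 4.27 CPM untreated and 3.49 CPM treated, at an adjusted p of 0.304. SERPINB1, which inhibits neutrophil proteases, gave 0.37 ± 0.16 (SE) at an adjusted p of 0.245, and 0.45 at 0.0529 without the second TWEAK replicate. SERPINA1 (alpha-1-antitrypsin), an inhibitor of neutrophil elastase, had 0.528 CPM untreated and 0.712 CPM treated, at an adjusted p of 0.443. SERPINC1 (antithrombin), SERPING1 (C1 inhibitor) and the enzyme MMP23B had at most 4 counts in any SKBR3 library and were not tested. SERPINE2 (protease nexin-1), which inhibits thrombin and plasminogen activators, had 1 to 3 counts untreated and 10, 3 and 13 counts treated. It did not pass the count filter, and with no filter on low counts it was called higher.

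CTSE, an aspartic protease of endosomes that is best known from gastric epithelium and antigen-presenting cells, was with all libraries the only member called in both lines. Untreated SKBR3 libraries had 0, 0 and 1 counts and treated ones 12, 16 and 10. Set against the limit of 3 counts per library, the treated mean of 0.492 CPM was at least 4.33-fold higher (adjusted p = 0.00105). In MDA-MB-453 the untreated libraries had 0 counts each and the treated ones 26, 28 and 24. The treated mean there was 0.942 CPM, at least 8.16-fold higher (adjusted p = 0.000216). In both lines every treated library thus exceeded every untreated one. In each line CTSE reached the count filter only through its treated libraries, so its test and this separation are not independent of that selection. CTSE lies at 206008535 to 206023909 on chromosome 1 and shares no exon bases with another annotated gene. Without the second TWEAK replicate of each line, TIMP1 and CTSD were also called higher in both lines, while calls over all genes rose.

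Of the 13 cathepsins tested in SKBR3, only CTSV and CTSE were called, and CTSE had entered the test only through its TWEAK libraries. CTSV, a cysteine protease close to CTSL in sequence, had 14.7, 13.8 and 15.0 CPM untreated and 17.6, 20.6 and 16.2 CPM treated. The groups did not overlap, but the change was only 1.25-fold (log2 0.32 ± 0.10 SE, adjusted p = 0.0853) and was not called in 7 of 14 alternative analyses. Over all 14 the adjusted p ran from 0.0393 to 0.315.

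CTSD had 633, 648 and 738 CPM in untreated and 736, 983 and 745 CPM in treated SKBR3. The second TWEAK replicate was the highest and the groups overlapped, with a log2 fold change of 0.29 ± 0.11 (SE) and an adjusted p of 0.162. Without that replicate the change was 0.14 ± 0.05 (SE) and the adjusted p was 0.0688. Leaving it out also called CTSS, a cysteine cathepsin of antigen-presenting cells, at 1.12 with an adjusted p of 0.0162, against 0.94 and 0.163 with all libraries. In the lower direction CTSF was called without that replicate, at -0.26 with an adjusted p of 0.0689. Members called higher numbered 11 without it, in place of 7 and including MMP10, and members called lower 1. Calls over all genes rose as well, from 1034 to 1589 higher and from 599 to 1191 lower.

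CTSA, CTSB, CTSL and CTSZ, all broadly expressed lysosomal enzymes, had log2 fold changes between 0.10 and 0.13 in SKBR3 with adjusted p-values from 0.304 to 0.503. CTSC (dipeptidyl peptidase I) had 77.9, 78.5 and 77.4 CPM untreated and 71.0, 69.5 and 71.0 CPM treated. These groups did not overlap, and the estimate of -0.14 ± 0.06 (SE) had an adjusted p of 0.189.

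**Figure D3:**
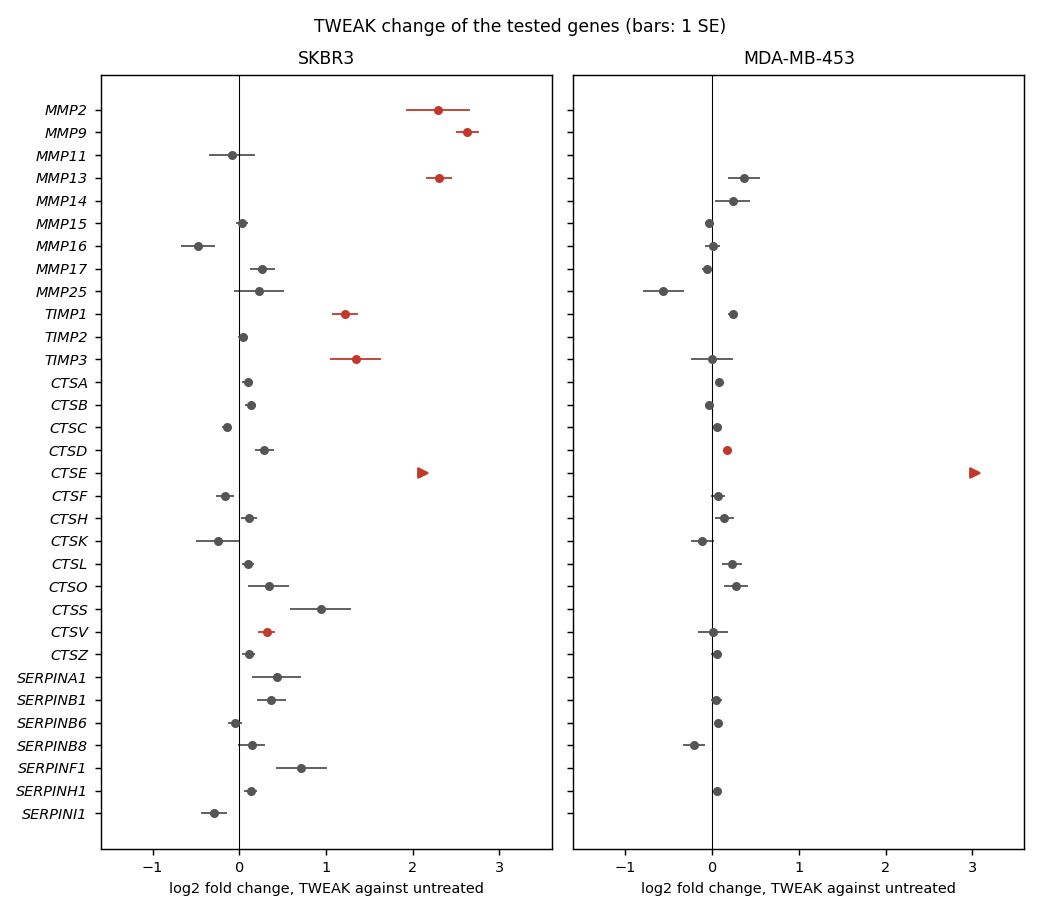
Log2 fold change with TWEAK (x axis) of the 32 members tested in at least 1 line, with SKBR3 on the left and MDA-MB-453 on the right; bars are 1 SE, red marks genes called at an adjusted p of at most 0.1 and a triangle is the lower bound for CTSE. The called points of SKBR3 lie to the right of 0, and all members but CTSE lie between -0.56 and 0.37 in MDA-MB-453.

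In MDA-MB-453 few genes of any kind were called. Of 24 tested members, CTSE and CTSD were called higher and none lower, where 1.49% of all 14929 genes were called, 1.29% higher and 0.208% lower. At an unadjusted threshold of 0.05, 3 members were higher and 1 (MMP25) was lower, against 5.95% and 4.57% of all genes. DESeq2 called only CTSE, higher, against 0.872% of the genes it tested called higher and 0.146% lower. The median log2 fold change was 0.06 over the 24 members and 0.0016 over all genes. MMP2, MMP9 and TIMP2, all measurable in SKBR3, had at most 4 counts in each MDA-MB-453 library, so a decrease or a small change in them was not detectable at this depth. CTSE passed the count filter in this line, too, only through its TWEAK libraries.

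CTSD had 111 CPM in each untreated MDA-MB-453 library and 130, 119 and 124 CPM in the treated ones. All treated libraries were higher, but by only 1.12-fold (log2 0.17 ± 0.04 SE, adjusted p = 0.0837). The gene was not called in 8 of 14 alternatives. Among these were the removal of any of the 3 untreated libraries or of TWEAK replicate 1 or 3, each of which left CTSE as the only called member. Without the second TWEAK replicate the adjusted p of CTSD was 0.0013.

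TIMP1 had 16.5, 15.6 and 17.7 CPM in untreated and 19.8, 19.8 and 19.2 CPM in treated MDA-MB-453. The groups did not overlap, and the log2 fold change of 0.24 ± 0.06 (SE) had an adjusted p of 0.112, just past the threshold. It was 0.0323 without the second TWEAK replicate, which gave 3 members called higher, while calls over all genes rose from 192 to 1003 higher and from 31 to 1098 lower. TIMP1 was also called with the replicate number as a block, where calls over all genes were 490 higher and 404 lower. MMP13 had 1.56, 1.68 and 2.53 CPM untreated and 2.21, 2.43 and 2.73 CPM treated, overlapping groups with a log2 fold change of 0.37 and a 95% interval from -0.0022 to 0.74.

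Of the other members, MMP25 had the lowest estimate, -0.56 ± 0.24 (SE), from 22 to 28 counts untreated and 15 to 22 treated, with an adjusted p of 0.42. SERPINH1 and SERPINB6 had estimates of 0.06 and 0.07. In 8 of the 24 tested members (33.3%) the groups did not overlap, 6 with the treated libraries above and 2 below, against 15% of all genes tested in this line, 8.32% above and 6.7% below. In SKBR3 the groups were apart in 10 of 31 (32.3%), 9 above and 1 below, against 26.7% of all genes, 13.9% above and 12.8% below. These counts are not neutral. They include CTSE in both lines and MMP2, TIMP3 and CTSS in SKBR3, which entered only through their TWEAK libraries.

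Whether the TWEAK change itself differed between the lines was tested with an interaction term in a single edgeR fit of the 12 libraries, in which 3.37% of 17201 genes were called, 2.36% with a lower value in MDA-MB-453. Of 32 members, 3 had a smaller change in MDA-MB-453 and none a larger one. At an unadjusted 0.05 there were 5 and 2, where 6.06% and 5.06% of all genes had a lower and a higher value in MDA-MB-453. DESeq2 called 2 and 1, and 2.87% and 1.52% of the genes it tested. The 3 were MMP13, with a log2 difference of -1.94 ± 0.27 (SE) and an adjusted p of 0.000356, TIMP1, with -0.98 ± 0.16 and 0.00157, and TIMP3, with -1.35 ± 0.38 and 0.0794. The calls of MMP13 and TIMP1 were retained in all 19 alternatives, whereas that of TIMP3 was lost in 14 of 18. For CTSE, both untreated groups were at the limit of detection, so its rise cannot be ranked between the lines. The same applies to MMP2 and MMP9, which were near or under that limit in MDA-MB-453.

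The genes that work with these families were read from the same fits, using a list of 64 proteases, inhibitors and partners. In SKBR3, 37 were tested, 9 were higher and 4 lower, where 6.6% of all genes were called higher and 3.82% lower. The inhibitor A2ML1, a relative of alpha-2-macroglobulin, changed most, from 9.62 to 60.6 CPM (log2 2.65 ± 0.09 SE, adjusted p = 3.47e-08). The cystatins, which inhibit cysteine cathepsins, gave 3 higher genes of 4 tested. CSTB, the abundant intracellular cystatin, had 68.8, 68.8 and 73.7 CPM untreated and 104, 114 and 99.2 CPM treated. The secreted CST6 went from 1.02 to 2.11 CPM and CST3 (cystatin C) from 31.2 to 39.7 CPM, the latter at an adjusted p of 0.0964. Without untreated replicate 1 or 2, CSTB was the only cystatin called. Genes called higher overall then numbered 694 and 686, against 1034. CST3 was also not called without untreated replicate 3 or TWEAK replicate 1. CSTA had an estimate of 0.33 at an adjusted p of 0.512.

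In the plasminogen system, which generates the matrix protease plasmin, the urokinase receptor PLAUR had 8.48, 8.41 and 10.1 CPM untreated and 13.0, 14.6 and 12.1 CPM treated, a log2 fold change of 0.56 (adjusted p = 0.00807). The plasminogen-binding proteins PLGRKT and ANXA2 rose by 0.72 and 0.60. Urokinase itself, PLAU, had 4.22 CPM untreated and 5.26 CPM treated, groups that did not overlap but with an adjusted p of 0.208. Tissue plasminogen activator, PLAT, had 0 to 5 counts per SKBR3 library, and both PLAU and PLAT had at most 1 count in any MDA-MB-453 library.

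PRSS23, a secreted serine protease, rose by 1.17 and CD44, a hyaluronan receptor that can hold MMP9 at the cell surface, by 0.98 in SKBR3. FURIN, the convertase that activates pro-forms of several MMPs, had 162, 150 and 165 CPM untreated and 100, 100 and 96.2 CPM treated, well-separated groups with a log2 fold change of -0.69 ± 0.06 (SE, adjusted p = 3.37e-05). The other lower genes were TMPRSS4 at -0.32, ADAM19 at -0.24 and SDC1 at -0.20, with adjusted p-values from 0.0657 to 0.0954.

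MDA-MB-453 showed FURIN lower and no other call among 31 tested genes of this list. FURIN had 71.6, 79.4 and 74.3 CPM untreated and 60.0, 65.6 and 64.9 CPM treated, a log2 fold change of -0.24 ± 0.05 (SE, adjusted p = 0.0286). No gene was called higher by edgeR or DESeq2, and 3 (ADAM8, CST3 and SPINT2) were higher at an unadjusted 0.05. Without the second TWEAK replicate, ANXA2, CST3 and SPINT2 were called higher, where calls over all genes rose from 192 to 1003 higher, and without untreated replicate 2 or 3 or TWEAK replicate 3, FURIN was not called. In SKBR3, leaving out that second TWEAK replicate gave 14 higher genes in place of 9, alongside the rise to 1589 higher among all genes. Leaving out any other single SKBR3 library gave 1 or 2 lower genes in place of 4. Genes called lower overall then numbered 240 to 495, against 599 with all libraries.

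**Figure D4:**
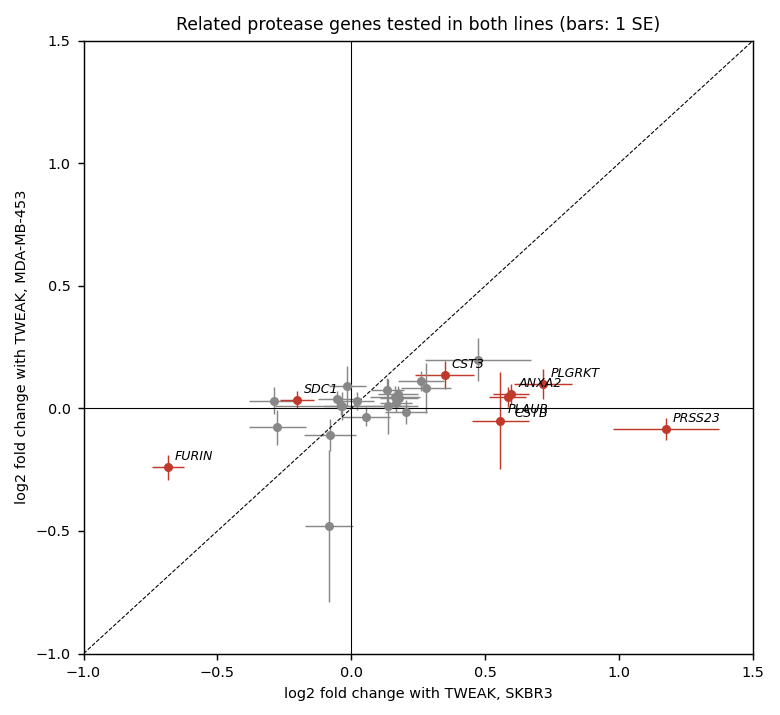
Log2 fold change with TWEAK in SKBR3 (x axis) and MDA-MB-453 (y axis) for 28 related protease genes tested in both lines; bars are 1 SE, red marks genes called in either line and the dashed line marks equal change. FURIN is the only red point that is below 0 on both axes and called in each line, and PRSS23, CSTB and ANXA2 lie near 0 on the y axis.

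Some of the marker lists also differed between untreated and treated libraries. The summed level of the 3 basal or squamous markers went from 0.396 to 0.655 CPM in untreated to 3.38 to 4.62 CPM in treated SKBR3, mostly through KRT5, and from 2.76 to 2.92 to 3.50 to 3.68 CPM in MDA-MB-453, where KRT5 and KRT14 were at the limit of detection. The 3 endothelial markers summed to 3.73 to 4.90 CPM in untreated and 6.12 to 7.35 CPM in treated SKBR3, with PECAM1 at or under the limit. Their ranges overlapped in MDA-MB-453. The 5 fibroblast markers overlapped in SKBR3 and were lower in treated MDA-MB-453, at 122 to 128 CPM untreated and 111 to 118 CPM treated. Leukocyte and luminal ranges overlapped in both lines. Among all genes tested, single genes did not overlap in 26.7% of cases in SKBR3 and 15% in MDA-MB-453. The part of the marker shifts in the protease results was not tested. In whole-culture RNA, more cells with a transcript and more transcript per cell cannot be told apart.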

How the data were processed

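The authors removed adaptors with Trimmomatic, mapped reads to hg38 with STAR and deposited raw counts per gene from featureCounts. Tool versions, annotation release and strand setting were not given in the sources used here, and the methods name a directional RNA kit where the labels name a DNA kit. Of 62696 identifiers, 62672 were matched to GENCODE release 44 on hg38. Counts were not corrected for duplicate reads, so limits of detection cover counting error only.

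Each line's 6 libraries were fitted with edgeR 4.0.16 in R 4.3.3 (filterByExpr, TMM, quasi-likelihood test, two-sided, Benjamini-Hochberg adjustment over all genes, threshold 0.1). Interaction and untreated contrasts used all 12 libraries. Fitted folds use a prior count of 0.125. Alternatives were DESeq2 1.42.0, other filters, one fit, a replicate block, a threshold of 0.05, omitted libraries and a later-added GC and length correction. By rule the text names called members, the highest of each role, CTSE, the largest called related genes, PLAU, PLAUR, PLAT and the cystatins. Other genes were named after their values were seen. One gene that fits the symbol rule is not reported here and is in no count of members. Members and lists were chosen with earlier results of these data known.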

Additional observations from a re-analysis of the deposited data

Results flagged for a closer look

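The TWEAK change differed between the lines, by the interaction of line and treatment, for 3 members and 5 related genes, where 3.37% of all 17201 genes were called. On the log2 scale, MDA-MB-453 minus SKBR3, the difference was -1.94 for MMP13, -0.98 for TIMP1 and -1.35 for TIMP3, a call that was lost for TIMP3 in 14 of 18 alternatives. It was -1.27 for PRSS23, -0.62 for PLGRKT, -0.54 for CSTB and -0.54 for ANXA2, all changes that were smaller in MDA-MB-453. FURIN gave 0.44, a smaller decrease in MDA-MB-453 than in SKBR3. No cause was tested. Single genes were not searched for outlying values, since groups of 3 are not tested that way.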

How the results depend on the processing

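The directions of all 12 named changes held in every alternative that could be fitted. MMP9, MMP13, TIMP1, MMP2 and CTSE kept their calls in SKBR3, as did CTSE in MDA-MB-453. At least 10 counts in every library removed CTSE, MMP2 and TIMP3 from the SKBR3 test, leaving 4 members higher, and CTSE from that of MDA-MB-453, leaving 1. In MDA-MB-453, DESeq2, one fit over all 12 libraries and a threshold of 0.05 also gave 1 member higher. Members lower in SKBR3 numbered 1 with no filter (MMP16), 1 with all 12 libraries in one fit (CTSC) and 2 with the GC and length correction (CTSC and CTSF), where genes lower among all tested were 863, 1068 and 1348 against 599. Members higher in SKBR3 were 10 of 59, 9 of 32 and 10 of 31 tested in these settings, against 7 of 31. Genes higher among all tested were 1205 of 35225, 1507 of 17201 and 1783 of 15661, against 1034 of 15661. One member, CTSC, had a larger change in MDA-MB-453 under DESeq2 and under the GC and length correction (1 each). Genes with a higher value in MDA-MB-453 numbered 239 of 15767 and 535 of 17201 in these 2 settings, against 173 of 17201. Members lower in untreated MDA-MB-453 fell to 8 of 21 tested with the strict filter, since members scarce in that line were no longer tested. Genes lower among all tested were 5278 of 12605 with that filter. Related genes higher in SKBR3 were 16 with one fit and 16 with the GC and length correction, in which genes higher overall were 1507 and 1783 against 1034. Those lower were 7 with that correction and 1 at a threshold of 0.05, where genes lower overall were 1348 and 363 against 599. The cause of these shifts was not tested otherwise.

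Deviations of untreated and treated libraries with the same replicate number had correlations of 0.22, -0.18 and -0.29 in SKBR3. In MDA-MB-453 they were positive but small, at 0.16, 0.17 and 0.02. The paper reports that repeats of cell-line experiments fell on different days, without tying a replicate number to a day. The numbers were therefore not taken as pairs. With the replicate number as a block, 7 members were higher in SKBR3 with CTSS in place of CTSV, and 2 related genes were lower there. Calls over all genes in SKBR3 went from 1034 to 824 higher and from 599 to 387 lower. In MDA-MB-453, 2 related genes (CST3 and SPINT2) were higher. The block also called TIMP1 higher in MDA-MB-453, making 3 members, while calls over all genes there went from 192 to 490 higher and from 31 to 404 lower.

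With single libraries left out, members higher in SKBR3 ranged from 6 to 11 and lower from 0 to 1, and in MDA-MB-453 higher from 1 to 3 and lower 0 throughout. Members with a smaller change in MDA-MB-453 ranged from 2 to 3. Related genes in SKBR3 ranged from 7 to 14 higher and 1 to 6 lower, and in MDA-MB-453 from 0 to 3 higher and 0 to 1 lower. Calls over all genes ranged from 686 to 1589 higher and 240 to 1191 lower in SKBR3. In MDA-MB-453 they ranged from 120 to 1003 higher and 10 to 1098 lower. Untreated members ranged from 12 to 13 higher and 16 to 17 lower in MDA-MB-453. At these depths, members under about 0.1 CPM could not be followed.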
